A study of Mus musculus with 2 samples.

Results

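The imprinted genes, which are transcribed mainly or only from the copy inherited from 1 parent, were followed through single-cell RNA counts of mouse embryos at E10.5 and E11.5. The set was a list of 36 gene symbols from 17 loci, looked up by symbol in the deposited count tables, and 34 of them were among the 31053 genes of those tables. Rian and Peg13 were not analysed here. Each stage had 1 library of cells from the dorsal aorta and the fetal liver of C57BL/6 embryos, with no sort or treatment named in the labels, and the number of embryos behind each library was not given. With 1 library a stage there is no replicate check, so no p-value is given and intervals cover counting error only. Because both parents of an inbred strain carry the same sequence, the counts do not show which parental copy a transcript came from.

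Imprinted genes lie in clusters, and each cluster is governed by a control region that is methylated on the maternal or the paternal copy. Several paternally expressed members, among them Igf2, Peg3 and Mest, are known as promoters of fetal growth, whereas maternally expressed Cdkn1c, Grb10 and H19 are known to hold growth back. Primordial germ cells erase these methylation marks on their way to the gonad, and Dlk1 is a classical marker of fetal liver progenitors.

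After filtering, 8009 cells at E10.5 and 8976 cells at E11.5 were analysed, with a median of 15479 and 13131 UMIs (unique molecules counted) per cell, and the libraries shared 20 analysed barcodes. Cells were put in classes by marker genes, none of them an imprinted gene of the list, and each class is called by its markers ("hepatoblast-like"). The blood progenitor gate was led by S100a8, S100a9 and Mpo, so its cells are called S100a8- and Mpo-rich blood cells here, and a class led by Shh and Foxa2 is called the Shh and Foxa2 epithelium. At E10.5 44.6% of the cells, and at E11.5 31.6%, fell in no class. Levels are counts per 1000000 (CPM) of a class's summed UMIs without haemoglobin and mitochondrial genes, in the 17 classes at E10.5 and 20 at E11.5 with at least 20 cells. Defining markers were present under the liver and germ cell names, where Afp stood at 14578 and 32389 CPM in the hepatoblast-like class, and Dppa3 at 993 and 1032 CPM in the germ cell-like class. The sclerotome-like and visceral mesenchyme-like classes were thin at E11.5, with 36 and 30 cells, of which 34 and 29 had only the minimum number of markers. Other classes were also mostly at that minimum. At E10.5 these were 27 of 29 neural tube-like, 40 of 51 Shh and Foxa2 epithelium and 110 of 138 visceral mesenchyme-like cells. Of gonad or adrenal-like cells, 53 of 62 at E10.5 and 105 of 136 at E11.5 were at it.

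Stretches before start sites are shown for the members whose joint or changing levels are described further on. They come from RefSeq (GRCm38.p6), run 5′ to 3′ on the gene's strand and have CpG dinucleotides, the targets of DNA methylation, in capitals. The first is the whole stretch between the start sites of Peg3 and Usp29, genes that point away from each other with start sites 164 bases apart (chr7:6730420-6730582, minus strand). The next are the 250 bases before Dlk1 (chr12:109452573-109452822, plus strand) and before Meg3 (chr12:109540746-109540995, plus strand), whose start sites lie 88173 bases apart. The last are the 250 bases before Zdbf2 (chr1:63273019-63273268, plus strand).
Peg3 to Usp29: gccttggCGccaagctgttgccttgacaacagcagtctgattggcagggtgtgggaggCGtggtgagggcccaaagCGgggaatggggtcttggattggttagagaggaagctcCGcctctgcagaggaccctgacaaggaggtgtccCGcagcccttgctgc
Dlk1: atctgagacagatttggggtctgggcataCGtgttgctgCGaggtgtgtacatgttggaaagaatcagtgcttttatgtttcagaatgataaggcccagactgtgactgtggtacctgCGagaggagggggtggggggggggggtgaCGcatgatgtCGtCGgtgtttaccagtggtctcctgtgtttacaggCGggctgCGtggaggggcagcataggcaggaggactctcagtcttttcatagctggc
Meg3: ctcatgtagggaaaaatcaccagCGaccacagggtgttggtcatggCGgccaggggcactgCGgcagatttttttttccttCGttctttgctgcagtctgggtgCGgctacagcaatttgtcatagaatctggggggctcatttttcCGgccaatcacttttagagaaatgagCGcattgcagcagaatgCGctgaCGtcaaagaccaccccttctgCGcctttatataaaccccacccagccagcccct
Zdbf2: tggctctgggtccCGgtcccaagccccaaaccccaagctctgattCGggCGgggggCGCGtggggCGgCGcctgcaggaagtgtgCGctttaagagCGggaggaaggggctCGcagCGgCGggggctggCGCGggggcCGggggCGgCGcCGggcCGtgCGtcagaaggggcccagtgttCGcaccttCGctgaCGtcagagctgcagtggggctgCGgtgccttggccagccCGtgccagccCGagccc
The Zdbf2 stretch held 26 CpG, against a median of 6 over the 250 bases before each of 32851 start sites in the RefSeq table, while Dlk1 had 8 and Meg3 had 10. TGCCGC, the core sequence read by the imprint-keeping protein ZFP57, was searched on both strands. It occurred 1 time before Meg3 and in none of the other 3 stretches, and 8.68% of all the stretches of 250 bases held it. Of the 47 such stretches of 29 members in the table, 6 held it.

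The 34 imprinted genes made up 1.16% of all UMIs at each stage, and their summed level differed widely between classes. In stellate-like cells the sum was 24885 CPM at E10.5 and 27614 CPM at E11.5. In neuron-like cells it was 18961 and 21019 CPM, and in muscle-like cells 25194 and 17236 CPM, whereas nephric-like cells had 5039 and 5479 CPM. The lowest sums were in blood and germ cells, at 1431 CPM in definitive erythroid-like cells and 1293 CPM in germ cell-like cells at E11.5. Of the 34 genes, 30 reached 50 CPM in at least 1 class. The other 4, Ascl2, Rtl1, Magel2 and Mkrn3, had their highest class levels at 10.7, 15.5, 25.2 and 25.0 CPM.

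**Figure D1:**
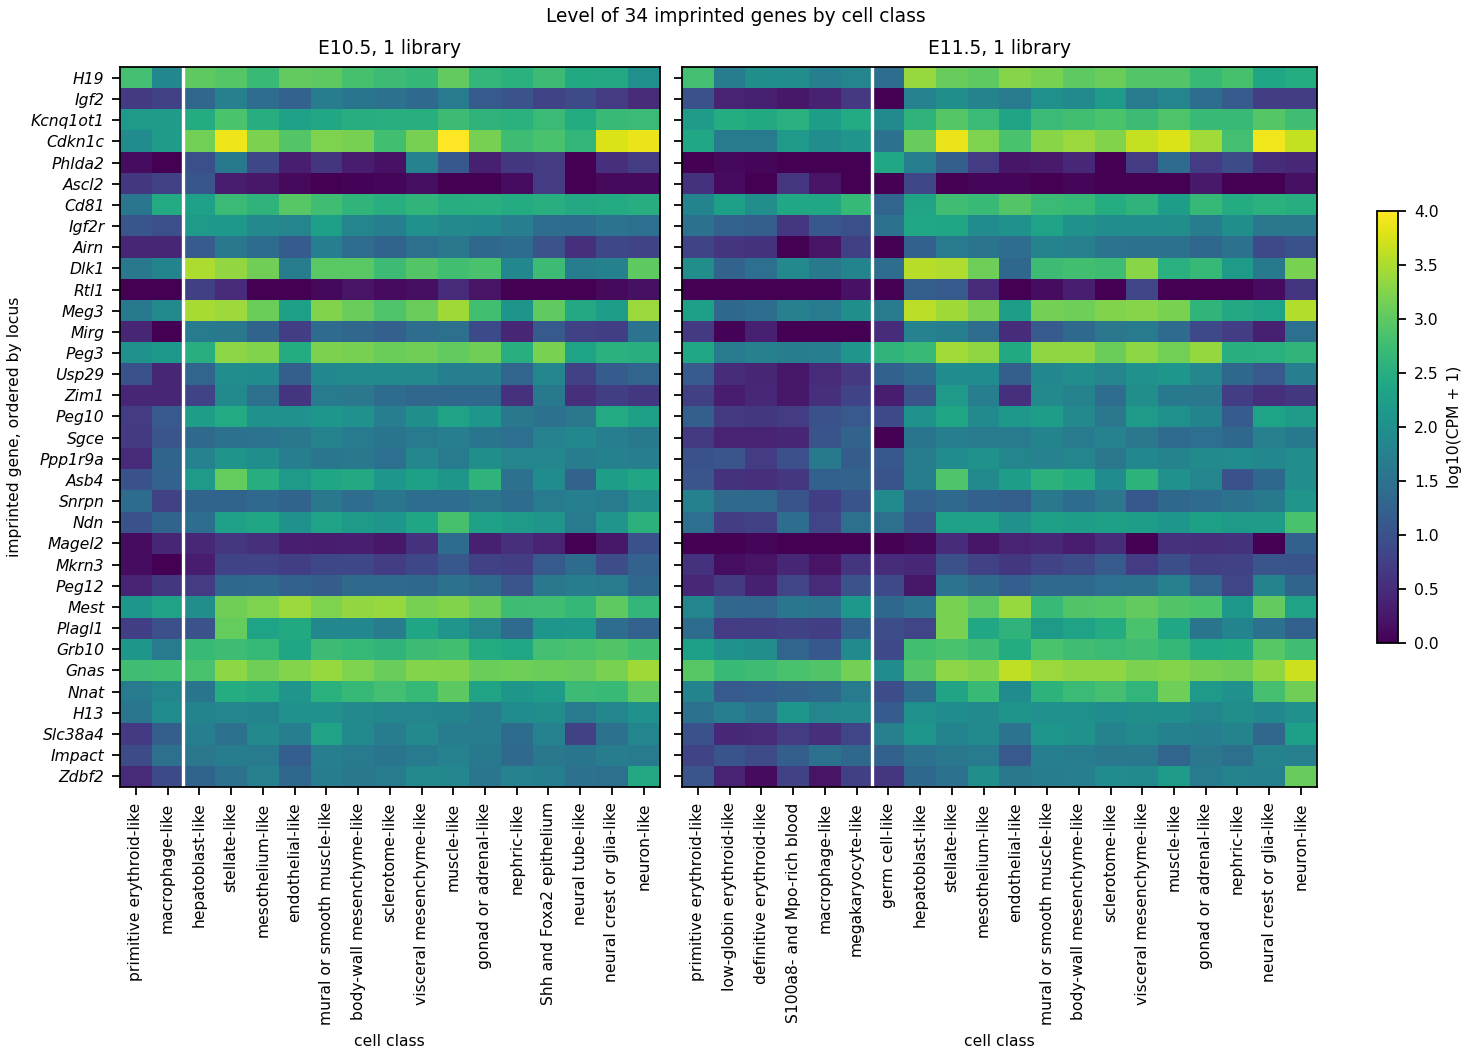
Level of 34 imprinted genes (rows, ordered by locus) in each cell class of at least 20 cells (columns) at E10.5 and E11.5, as log10(CPM + 1) in colour; a white line divides blood classes on the left from the others. Blood columns are dark for most rows, and Cdkn1c is brightest in the muscle-like class at E10.5, at 11985 CPM.

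As a measure of how unevenly a gene was spread, its highest class was set against the median class. At E10.5, 8 of 28 members reaching 50 CPM were at least 4-fold above the median class, and 26.8% of all genes at that level were. At E11.5 the count was 16 of 30, beside 36.5% of all genes. Over the 15 classes measured at both stages the counts were 8 of 28 (25.2% of all genes) and 8 of 29 (30.9%), the same number at both stages. Over those classes the shares of members were near the shares of all genes. Cdkn1c, Dlk1, Asb4, Ndn, Plagl1 and Zdbf2 were past 4-fold at both stages there. Over all classes, 17 at E10.5 and 20 at E11.5, 16 of 34 members had the same highest class at both stages. The share of all genes that did was not counted, and classes measured at 1 stage only could not match.

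At the locus of Dlk1 (chr12:109452823-109463336), a membrane-bound Notch-like ligand, and Meg3, a maternally expressed long noncoding RNA, hepatoblast-like cells led. Dlk1 stood at 3179 CPM at E10.5 (95% interval 3113 to 3246) and 3701 CPM at E11.5 (3661 to 3742) in hepatoblast-like cells. Stellate-like cells followed with 2217 and 3364 CPM. Dlk1 had a UMI in 100% and 99.3% of hepatoblast-like cells, so it marked nearly the whole class. Endothelial-like cells, by contrast, had 47.1 and 21.3 CPM of Dlk1. Meg3 was highest in the same class, at 3034 and 3829 CPM, but was also high where Dlk1 was lower, with 2501 and 3403 CPM in neuron-like cells and 2646 CPM in muscle-like cells at E10.5. Mirg, a noncoding RNA downstream that hosts microRNAs, reached 43.8 and 57.7 CPM in hepatoblast-like cells. Rtl1, a retrotransposon-derived gene of the paternal copy, had at most 4.63 CPM at E10.5 and 15.5 CPM at E11.5, both in hepatoblast-like cells.

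Peg3 (chr7:6703892-6730431), a zinc finger protein, was broad in mesenchyme and scarce in blood. Stellate-like cells led with 2025 CPM at E10.5 and 2764 CPM at E11.5, and mesothelium-like cells had 1732 and 2193 CPM. In endothelial-like cells Peg3 was 289 and 268 CPM. Usp29, the deubiquitinase gene that starts on the other side of the stretch printed above, had fewer UMIs. It was highest in stellate-like cells at E10.5 with 91.5 CPM, as Peg3 was, but in muscle-like cells at E11.5 with 124.9 CPM. The maternally expressed Zim1 was highest in stellate-like cells at both stages, at 79.7 and 143 CPM.

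At the Kcnq1 domain the maternally expressed Cdkn1c (chr7:143458339-143461050), an inhibitor of cyclin-dependent kinases, was the most abundant imprinted gene by UMIs. It was 11985 CPM (11849 to 12123) in muscle-like cells at E10.5 and 6237 CPM in the 20 muscle-like cells at E11.5. With classes taken from Leiden clusters the E10.5 level of Cdkn1c in muscle-like cells was 5351 CPM. Neural crest or glia-like cells had 6257 and 8319 CPM, stellate-like cells 7987 and 7720 CPM, and nephric-like cells 575 and 627 CPM. Cells of a class differed widely in Cdkn1c: the median neuron-like cell had 6017 CPM at E10.5 and 627 CPM at E11.5, although the 90th percentile was 16538 and 14223 CPM. The antisense RNA Kcnq1ot1, expressed from the paternal copy, was far more even, with a highest class of 748 and 884 CPM in stellate-like cells. Cd81, a tetraspanin, was highest in endothelial-like cells at 909 and 837 CPM. Phlda2, known as a brake on placental growth, was near 0 in most classes, with a median class of 3.15 CPM at E10.5 and 1.87 CPM at E11.5. Ascl2, a transcription factor needed in the placenta, had at most 10.7 CPM.

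H19 (chr7:142575529-142578143), a maternally expressed noncoding RNA, was led by endothelial-like cells at E10.5 with 1097 CPM and by hepatoblast-like cells at E11.5 with 2387 CPM. Muscle-like cells had 1079 CPM at E10.5, close to the endothelial-like value. Neuron-like cells were the lowest class outside blood and germ cells at E10.5, at 99.4 CPM of H19. The growth factor gene Igf2 was counted at no more than 53.8 CPM in any class at E10.5 and 148 CPM at E11.5. Its level is uncertain, because Gm49394, a gene model on the same strand, overlaps it and reads that fit both are not counted for either; Gm49394 itself had at most 3 UMIs in a class. Igf2r, the maternally expressed receptor that removes IGF2, was highest in mural or smooth muscle-like cells at E10.5 with 188 CPM and in hepatoblast-like cells at E11.5 with 253 CPM. Its antisense RNA Airn was highest in mural or smooth muscle-like cells at both stages, at 52.0 and 61.1 CPM.

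Around Peg10, a retrotransposon-derived gene needed in the placenta, stellate-like cells led for Peg10 and Asb4 at both stages. Peg10 was at 278 and 230 CPM there, with neural crest or glia-like cells next at 274 and 209 CPM. Asb4, which encodes a subunit of a ubiquitin ligase, was 1121 CPM (1054 to 1191) in stellate-like cells at E10.5 and 786 CPM (739 to 835) at E11.5. The next class for Asb4 had 393 CPM at E10.5 and 381 CPM at E11.5. Sgce, encoding epsilon-sarcoglycan, was flat, with a median class of 38.8 CPM and a highest class of 72.4 CPM at E10.5. Ppp1r9a, which encodes the actin-binding neurabin, ranged up to 115 CPM in stellate-like cells at E10.5 and 112 CPM in mesothelium-like cells at E11.5.

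At the Prader-Willi domain the members differed in their leading class. Ndn, which encodes necdin, was 697 CPM in muscle-like and 376 CPM in neuron-like cells at E10.5, and 716 CPM in neuron-like cells at E11.5. Snrpn, a spliceosome component, was highest in neuron-like cells among the classes of at least 20 cells, at 93.5 and 121 CPM. Its level is uncertain, because the gene model Gm38393, at 4.65 and 10.1 CPM in neuron-like cells, overlaps it. Snurf, which shares its transcript, was listed with 0 UMIs in all classes. Magel2 had its highest levels in muscle-like cells at E10.5 and neuron-like cells at E11.5, at 25.2 and 16.6 CPM. Peg12 was highest in the neural tube-like class at E10.5 and in the neural crest or glia-like class at E11.5, at 47.4 and 61.4 CPM. Mkrn3 was highest in neural tube-like cells at E10.5 and in sclerotome-like cells at E11.5, at 25.0 and 13.1 CPM.

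Among the genes standing alone, Plagl1, a zinc finger transcription factor, had the most uneven level. Stellate-like cells had 1128 CPM (1061 to 1199) at E10.5 and 1543 CPM (1477 to 1611) at E11.5, with a UMI in 100% of cells at both stages. The next class for Plagl1 was endothelial-like at E10.5 with 265 CPM and visceral mesenchyme-like at E11.5 with 701 CPM, and hepatoblast-like cells had 9.61 and 5.94 CPM. Mest, of the alpha/beta hydrolase fold family, was highest in endothelial-like cells at 2517 and 2389 CPM and low in hepatoblast-like cells at 95.4 and 31.9 CPM. The hepatoblast-like level of Mest at E11.5 was 68.8 CPM as a mean over cells and 58.5 CPM with doublets kept.

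Zdbf2, known for a part in feeding and growth after birth, was a neuron gene here, at 259 and 1183 CPM, with the next class at 75.5 and 149 CPM. Gnas, which encodes the stimulatory G protein subunit, was counted per gene, so its transcripts are not told apart. Gnas had 511 CPM or more in every class other than germ cells, and was highest in neuron-like cells at 2714 and 4891 CPM. Nnat, which encodes neuronatin, also led in neuron-like cells, at 1039 and 1357 CPM, with muscle-like cells close behind at 998 and 1300 CPM. Grb10, an adaptor that dampens insulin and IGF receptors, was highest in neural crest or glia-like cells at 826 and 928 CPM. Slc38a4, an amino acid transporter, was led by mural or smooth muscle-like cells at E10.5 with 200.3 CPM and neuron-like cells at E11.5 with 180 CPM. H13, a signal peptide peptidase, and Impact, a regulator of translation, were flat, with highest classes of 125 CPM and 60.5 CPM.

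In blood most imprinted genes were low, and a few were not. The comparison was with the median of the classes outside blood and germ cells. In primitive erythroid-like cells, the first red cells of the embryo, 23 of 28 members at E10.5 were at least 4-fold below that median, beside 27.4% of all genes at the same level. At E11.5 the count there was 22 of 29, beside 23.4% of genes. In definitive erythroid-like cells 25 of 29 were that low (29.7% of genes), and in low-globin erythroid-like cells 23 of 29 (26.1%). The S100a8- and Mpo-rich blood cells had 22 of 29 (20.2%) and megakaryocyte-like cells 21 of 29 (18.7%). In macrophage-like cells the counts were 19 of 28 at E10.5 (18.1%) and 23 of 29 at E11.5 (20.6%). In all 8 blood classes and stages the share of members was thus above the share of genes, among genes chosen by their level outside blood. With the cells of the highest doublet scores kept, the primitive erythroid-like counts were 14 of 28 and 11 of 29.

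Gnas, Kcnq1ot1 and H13 were the members within 4-fold of that median in all 8 of those blood values. Gnas ranged from 511 CPM in low-globin erythroid-like cells to 1471 CPM in megakaryocyte-like cells. Kcnq1ot1 ranged from 146 to 348 CPM in them. Cd81 was low in primitive erythroid-like cells at 35.7 and 62.7 CPM, but was 486 CPM in megakaryocyte-like cells at E11.5.

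H19 set primitive red cells apart from the rest of the blood. It was 636 CPM (607 to 666) in primitive erythroid-like cells at E10.5 and 628 CPM (582 to 678) at E11.5. In the other blood classes H19 at E11.5 was 96.7 CPM (89.2 to 105) in definitive erythroid-like cells, 48.3 CPM (44.6 to 52.2) in low-globin erythroid-like cells, 89.2 CPM in S100a8- and Mpo-rich cells, 52.4 CPM in macrophage-like and 64.8 CPM in megakaryocyte-like cells. None of these intervals overlapped those of the primitive erythroid-like cells. An H19 UMI was found in 97.8% of the 180 primitive erythroid-like cells at E10.5 and 81.9% of the 171 at E11.5, against 68.8% of definitive erythroid-like cells. After each cell was thinned to 5000 UMIs these shares were 76.4%, 56.4% and 30.8%, with 16% in germ cell-like cells, where H19 was lowest. With haemoglobin UMIs in the total, the primitive erythroid-like levels of H19 were 322 and 203 CPM. With the cells of the highest doublet scores kept, H19 was 103 CPM in low-globin and 145 CPM in definitive erythroid-like cells.

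The counts of 5 genes of mesenchyme (Col3a1, Col1a2, Col1a1, Postn and Lum) were read beside these values, since RNA set free from other cells gives UMIs in droplets of cells that do not make it. Their summed level in primitive erythroid-like cells was 0.0604 of that in the whole library at E10.5 and 0.220 at E11.5. At the share of the 5 mesenchymal genes, H19 would be at 37.1 and 197 CPM, and its measured level was 17.1 and 3.19 times that. Meg3, at 39.9 and 181 CPM, was 0.653 and 0.704 times the level matched in this way. Cdkn1c, at 84.2 and 250 CPM, was 0.696 and 0.573 times it. The part of carried-over RNA in the low levels was not tested.

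**Figure D2:**
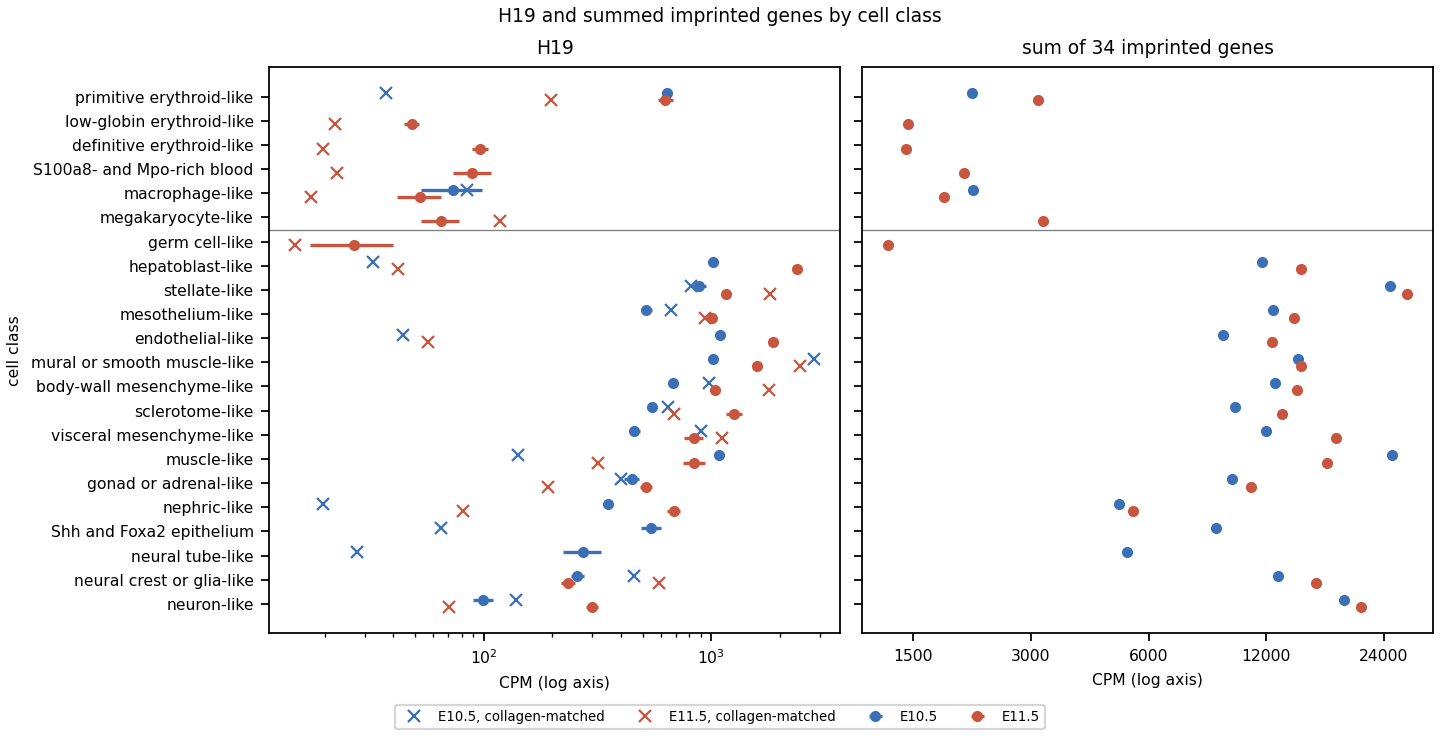
H19 (left) and the sum of 34 imprinted genes (right) by cell class, in CPM on log axes; dots are class levels with 95% counting intervals for H19, crosses the level H19 would have at the class's share of 5 mesenchymal genes, and the grey line divides blood from other classes. Primitive erythroid-like cells lie at 636 and 628 CPM of H19, above the other blood classes.

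Germ cell-like cells were few, with 5 in the earlier library and 27 in the later, and had low levels of most imprinted genes, with a sum of 2130 and 1293 CPM. The level was set against the 17 other classes at E10.5 and the 19 at E11.5, for genes reaching 50 CPM in 1 of them. Genes high only in germ cell-like cells could not enter these counts. Phlda2 at E11.5, with 49.9 CPM in its highest other class, was left out in this way. At E10.5, 24 of 28 members were below the median of the other classes, beside 63.5% of all genes, and 14 were below every one of them, beside 24.1%. In the 5 cells of that stage 3 counts stand for 19.5 CPM, so several of the 14 are not resolved. Igf2, Airn, Zim1 and Sgce had 0 UMIs there, against lowest other classes of 1.96, 1.70, 1.70 and 3.81 CPM. Dlk1 was 39.0 CPM against 39.5 CPM. At E11.5, 27 of 29 were below the median (55.2% of all genes) and 10 below every other class (12.7%). Gnas was 84.9 CPM (66.9 to 106) in germ cell-like cells at E11.5, whereas the lowest of the other classes had 511 CPM. Grb10 was 6.71 CPM, against 11.8 CPM in the next lowest class, and Cdkn1c was 30.2 CPM against 45.4 CPM. H19 was 26.8 CPM (17.2 to 39.9) and Kcnq1ot1 81.6 CPM, both also lowest. With the cells of the highest doublet scores kept, H19 in germ cell-like cells was 74.9 CPM. Igf2, Airn, Sgce, Ascl2, Rtl1 and Magel2 had 0 UMIs in 27 cells, which at 3 counts of 894732 UMIs allows up to 3.35 CPM.

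Phlda2 went the other way. It was 714 CPM (587 to 861) in the 5 germ cell-like cells at E10.5 and 238 CPM (207 to 272) in the 27 at E11.5, the highest of all classes at both stages. The next class had 58.3 CPM at E10.5 and 49.9 CPM at E11.5. A Phlda2 UMI was found in 96.3% of germ cell-like cells at E11.5 and in 2.35% of body-wall mesenchyme-like cells. After thinning to 5000 UMIs the shares were 60.0% and 1.10%. Snrpn was 97.4 CPM in germ cell-like cells at E10.5, from 15 UMIs, and its interval of 54.5 to 161 spanned the 93.5 CPM of neuron-like cells. At E11.5 Snrpn was 78.2 CPM, below only neuron-like cells. Peg3 was 338 CPM at E10.5, against 1099 CPM in the median class, and 417 CPM at E11.5, against 407 CPM.

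**Figure D3:**
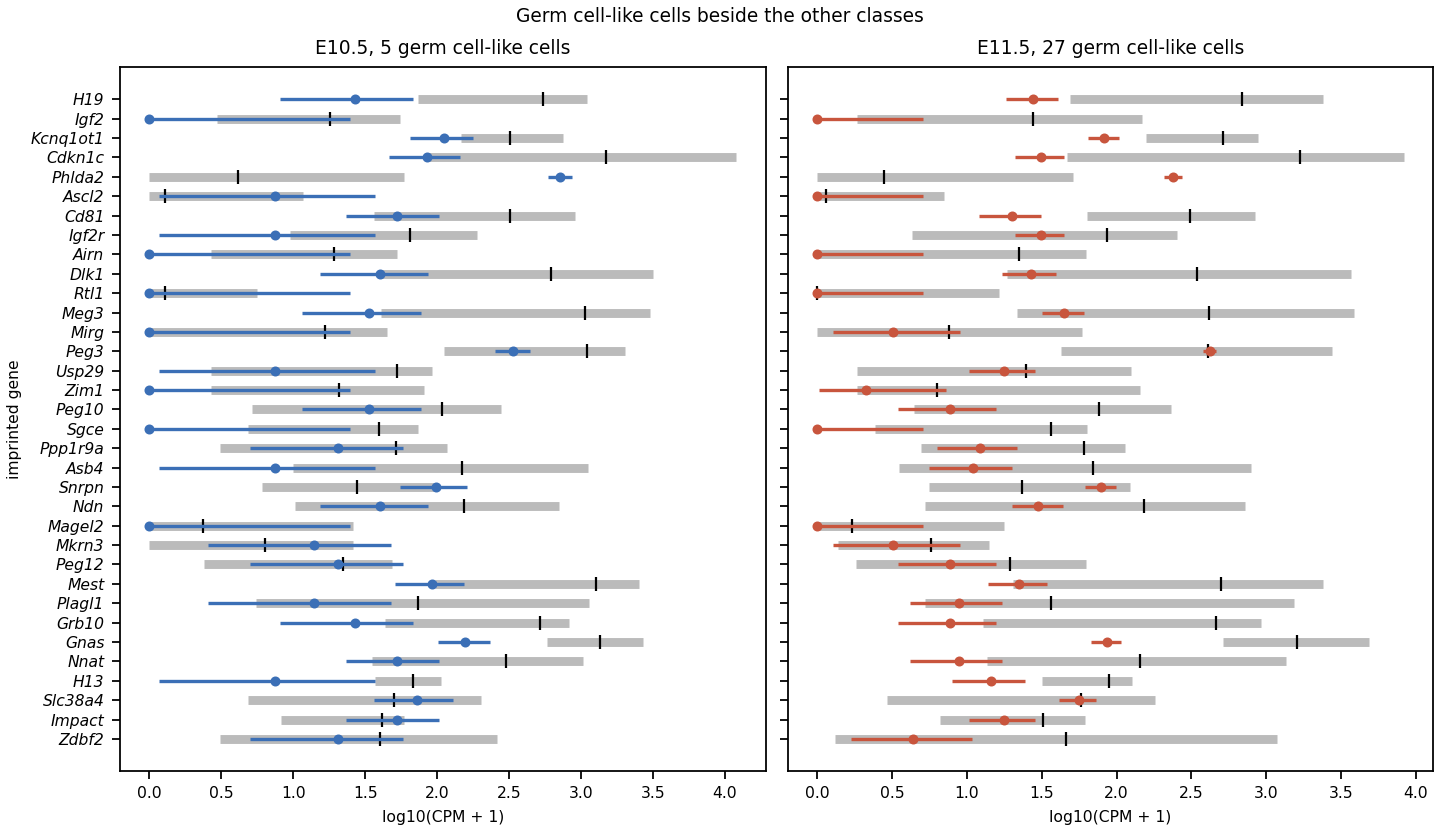
Level of each imprinted gene in germ cell-like cells (dots with 95% counting intervals) beside the range of the other classes of at least 20 cells (grey bars, black tick at the median), as log10(CPM + 1), at E10.5 and E11.5. Phlda2 lies to the right of its bar at both stages, at 714 and 238 CPM, and Gnas to the left, at 156 and 84.9 CPM.

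Pooled over classes, imprinted genes moved between the stages about as often as other genes, but the higher pairs were unevenly spread over the classes. The ratio of E11.5 over E10.5 was taken in the 10 classes with at least 50 cells in each library, for genes with at least 20 UMIs. In a class total, a change in the mix of cells and a change per cell cannot be told apart. In several classes the cells of the libraries lay in different Leiden clusters. Clusters with at least 95% of their cells from 1 library held 95.2% and 95.8% of the body-wall mesenchyme-like cells of the stages. They held 98.7% and 94.3% of mural or smooth muscle-like cells, which were mostly in cluster 7 and then cluster 52. Of gonad or adrenal-like cells they held 100% and 99.3%, with clusters 20 and 58 the largest. Of mesothelium-like cells they held 57% and 72.9%, with clusters 1 and 43 the largest. Most hepatoblast-like cells were in cluster 37 and then 48, and most primitive erythroid-like cells in cluster 8 and then 9. Endothelial-like, neuron-like, stellate-like and neural crest or glia-like cells were almost all in clusters that held both libraries, with at most 5.22% in clusters of 1 library. The spread over these clusters still changed in neuron-like cells, with 38.2% and then 76.6% in cluster 34. It also changed in endothelial-like cells, where the largest cluster was 3 with 46.0% and then 5 with 51.0%. In the classes that were split or whose spread over clusters changed, stage and cell subtype cannot be told apart. Of 300 member and class pairs 32 (10.7%) were at least 2-fold higher at E11.5 and 15 (5%) at least 2-fold lower, beside 9.21% and 4.35% of 109605 pairs over all genes. Of the 32 higher pairs, 11 were in primitive erythroid-like cells, which had 0 of the lower ones. The median log2 ratio was 0.21 for the members and 0.06 for all genes.

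By class, hepatoblast-like cells had 5 of 31 members at least 2-fold higher (7.83% of all genes) and 3 lower (4.63%). Neuron-like cells had 5 of 32 higher (10.7% of genes) and 3 lower (6.06%). Body-wall mesenchyme-like cells had 3 of 33 higher (14.5%) and 1 lower (3.03%). All these counts are small. In mural or smooth muscle-like cells 3 of 32 were higher (8.59%) and 2 lower (2.77%), in endothelial-like cells 2 of 30 (3.84%) and 1 (2.08%). Neural crest or glia-like cells had 0 of 30 higher (6.84%) and 2 lower (3.12%), and mesothelium-like cells 1 of 31 (9.67%) and 1 (2.18%). The gonad or adrenal-like class had 1 of 29 (12.0%) and 1 (6.84%), and the stellate-like class 1 of 30 (5.03%) and 1 (4.63%). Primitive erythroid-like cells had more, 11 of 22 higher (11.8%) and 0 lower (11%), with a median log2 ratio of 0.97 beside -0.04 over all genes there. In that class the 5 mesenchymal genes were also higher at E11.5, with 3 of 4 measured past 2-fold and a median log2 ratio of 3.15, and their part in the members' ratios was not tested. Meg3 had a log2 ratio of 2.18 there and 0.43 with the cells of the highest doublet scores kept, and Cdkn1c 1.57 and 0.71. H19 had a log2 ratio of -0.02 (-0.15 to 0.11) in that class, and -0.66 with haemoglobin UMIs in the total.

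Zdbf2 in neuron-like cells was more than 4-fold higher at E11.5. Its level was 259 CPM (244 to 275) at E10.5 and 1183 CPM (1149 to 1218) at E11.5, a log2 ratio of 2.19 (2.09 to 2.29). The share of neuron-like cells with a Zdbf2 UMI was 68.3% and 94.6%, and 48.5% and 84.2% after thinning. Beside it, the neuronal marker Tubb3 was 2948 and 1189 CPM in that class and Nefl 1862 and 2132 CPM, and the part of such differences in the Zdbf2 ratio was not tested. In definitive erythroid-like cells, which should lack Zdbf2, the share was 0.664%, and 0% after thinning. Other members that were higher in neuron-like cells at E11.5 were H19, with 99.4 and 300 CPM (log2 ratio 1.59), Slc38a4, with 66.4 and 180 CPM (1.44), and Usp29, with 18.9 and 49.6 CPM (1.40). Cdkn1c had a log2 ratio of -0.80 there.

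Igf2 was higher at E11.5 in 10 of 10 classes and at least 2-fold higher in 8 of them, with a median log2 ratio of 1.20. Its interval lay above 0 in 7. Its counts ran from 11 and 10 UMIs in primitive erythroid-like cells to 992 and 2936 in body-wall mesenchyme-like cells. The overlap with Gm49394 leaves the level of Igf2 uncertain. Kcnq1ot1 was also higher in 10 of 10, but past 2-fold only in mural or smooth muscle-like cells, at 247 and 528 CPM. H19 was higher in 8 of 10 classes, and in hepatoblast-like cells was 1021 CPM at E10.5 and 2387 CPM at E11.5, a log2 ratio of 1.23 (1.17 to 1.28). Gnas was 1806 and 4210 CPM in endothelial-like cells (1.22). Plagl1 was higher in body-wall mesenchyme-like cells, at 72.6 and 199 CPM, and in mural or smooth muscle-like cells, at 73.4 and 151 CPM.

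Mest and Asb4 were lower at E11.5 in many classes but not in all. Mest was lower in 8 of 10 classes, among them mural or smooth muscle-like cells with 1675 and 501 CPM (log2 ratio -1.74) and body-wall mesenchyme-like cells with 2229 and 818 CPM (-1.45). In endothelial-like cells the log2 ratio of Mest was -0.08, and in stellate-like cells 0.23. Mest was 1758 and 650 CPM in the whole libraries. In hepatoblast-like cells, with Mest at 95.4 and 31.9 CPM, the share of the 5 mesenchymal genes was 0.0532 and 0.0468. In primitive erythroid-like cells, with Mest at 127 and 68.4 CPM, that share was 0.0604 and 0.220. The part of carried-over RNA in the Mest ratios of these classes was not tested. Asb4 was lower by a log2 ratio of -3.02 (-3.42 to -2.65) in the neural crest or glia-like class, with 167 and 20.5 CPM. With classes taken from Leiden clusters that ratio was -1.78, and with doublets kept -2.34. In gonad or adrenal-like cells Asb4 was 393 and 68.6 CPM (-2.52), and in mesothelium-like cells 309 and 77.0 CPM. In mural or smooth muscle-like cells Asb4 was higher at E11.5, with 234 and 369 CPM (0.65), and in body-wall mesenchyme-like cells the log2 ratio was 0.14.

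**Figure D4:**
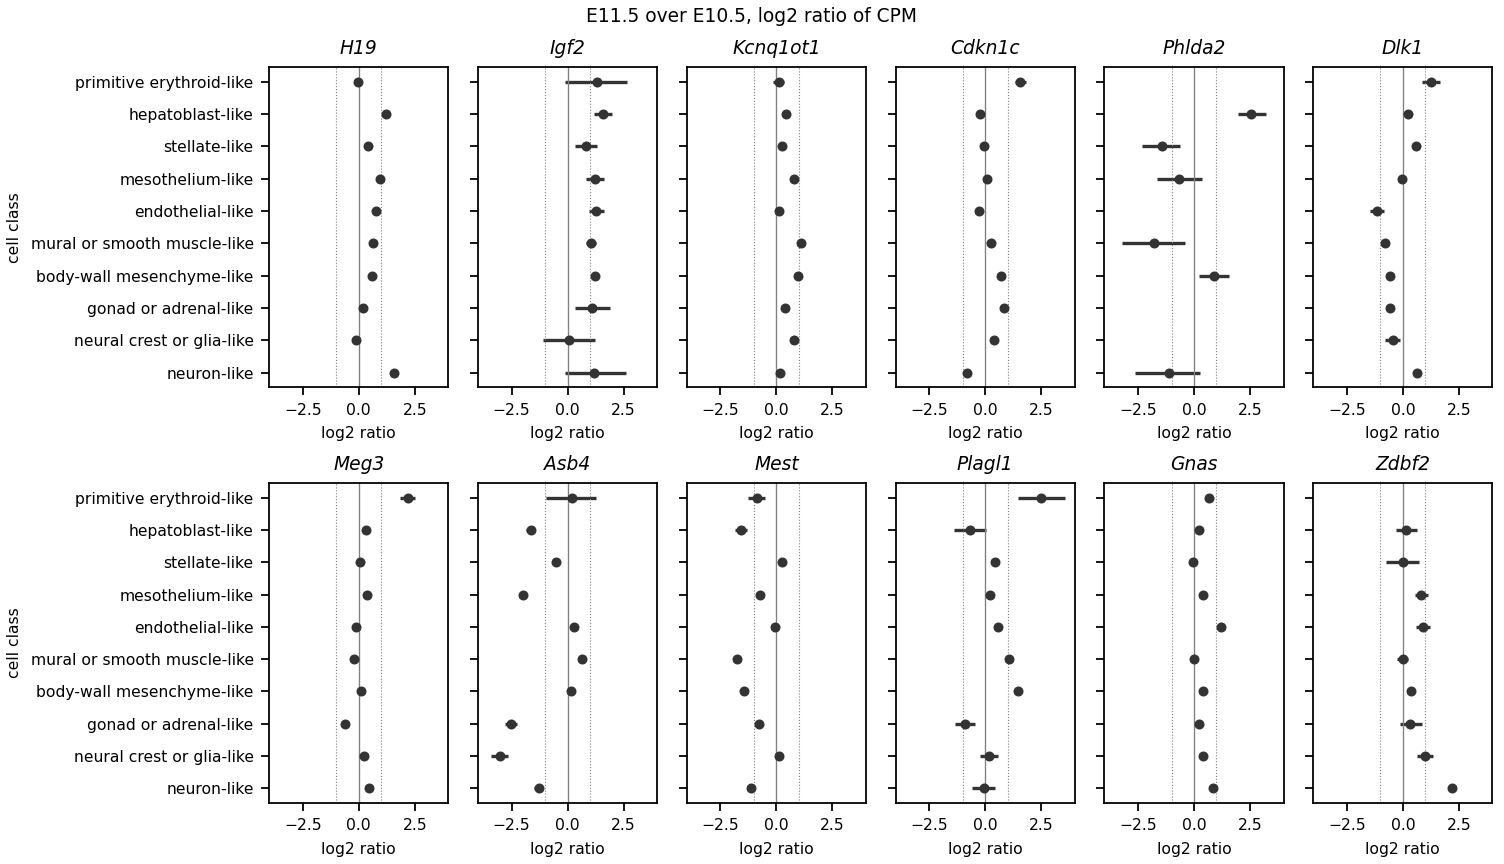
Log2 ratio of E11.5 over E10.5 for 12 imprinted genes in the 10 classes with at least 50 cells in each library; dots are ratios of class CPM with 95% counting intervals, and dotted lines mark 2-fold. Igf2 lies above 0 in all 10 classes, Zdbf2 reaches 2.19 in neuron-like cells and Asb4 reaches -3.02 in neural crest or glia-like cells.

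Members of a locus were also compared with each other over classes, as a description, since the classes of a library share its depth and free RNA. Peg3 and Usp29 had a Spearman rho of 0.89 over 17 classes at E10.5 and 0.90 over 20 at E11.5. Their UMI ratio had a median of 18.8 at E10.5, with a range of 11.9 to 26.4, and of 21.3 at E11.5, with a range of 8.20 to 32.7. Dlk1 and Meg3 had 0.87 and 0.93, and Meg3 and Mirg 0.97 and 0.93. The Dlk1 to Meg3 ratio, however, ranged from 0.183 to 1.14 over the classes of E10.5. Peg10 and Sgce, which lie side by side in opposite directions, had 0.19 at E10.5 and 0.83 at E11.5. Kcnq1ot1 and Cdkn1c, expressed from opposite parental copies, had 0.67 and 0.89, although their ratio ranged from 0.0462 to 1.74 at E10.5. H19 and Igf2 had 0.66 and 0.89. As a yardstick, pairs from different loci had a median rho of 0.39 in the earlier library and 0.615 in the later, while pairs of 1 locus had 0.62 and 0.63. The classes of E11.5 included more blood classes, low for most members, and their part in these values was not tested.

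**Figure D5:**
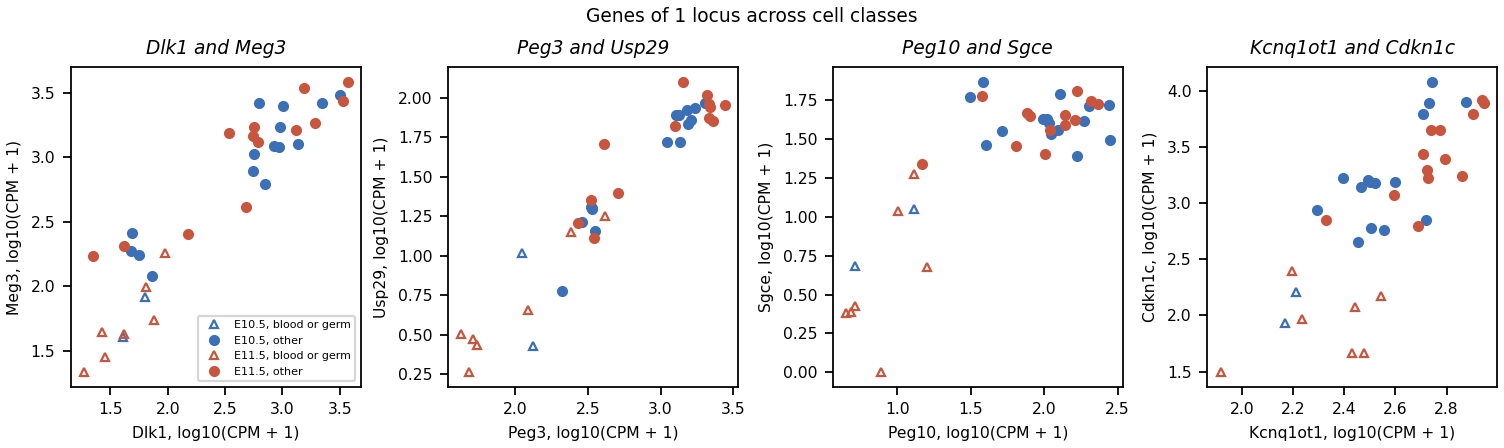
Levels of 2 genes of a locus against each other, each point 1 cell class of at least 20 cells, as log10(CPM + 1); filled circles are other classes and open triangles blood or germ cell-like classes, in blue for E10.5 and red for E11.5. Dlk1 with Meg3 and Peg3 with Usp29 rise together over the classes, and Peg10 with Sgce spread out among the filled circles.

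A list of 49 other imprinted genes, 46 of them in the tables, was read in the same way. At E10.5, 9 of 18 genes reaching 50 CPM were at least 4-fold above the median class, and at E11.5, 10 of 20, against the 26.8% and 36.5% of all genes. Th, the rate-limiting enzyme of catecholamine synthesis, was 389 and 528 CPM in neuron-like cells, and the potassium channel gene Kcnk9 was 55.8 and 187 CPM. Nap1l5, a histone chaperone relative, was 55.3 and 129 CPM there. In neuron-like cells 7 of 28 measured genes of this list were at least 2-fold higher at E11.5 (10.7% of all genes) and 4 lower (6.06%).

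Genes that write, read or erase methylation were mostly even over classes. Of the 17 listed, 0 of the 10 reaching 50 CPM at E10.5 and 2 of 15 at E11.5 were at least 4-fold above the median class. The shares of all genes were 26.8% and 36.5%. Tet1, a methylcytosine oxidase, was 215 CPM in germ cell-like cells at E11.5, against 35.2 CPM in body-wall mesenchyme-like cells. Dnmt1, the maintenance methyltransferase, was 205 CPM there, while its partner Uhrf1 was 8.94 CPM, against 141 CPM in definitive erythroid-like cells. The imprint reader Zfp57 and the methyltransferase Dnmt3b were each at 1.12 CPM in germ cell-like cells. Dnmt3b was highest in S100a8- and Mpo-rich blood cells at 126 CPM. Of 12 genes for IGF ligands, receptors and binding proteins, 7 of 9 reaching 50 CPM at E10.5 and 6 of 8 at E11.5 were at least 4-fold above the median class. These counts stand beside the same 26.8% and 36.5% of all genes. In the hepatoblast-like class Igfbp1, a binding protein of the IGF ligands, was 72.6 and 224 CPM.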

How the data were processed

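Single-cell RNA was measured in 1 library of each stage with the 10x 3′ v3.1 kit, per the labels' protocols. The authors deposited UMI counts per gene and barcode, made with Cell Ranger 5.0.0 on mm10 (GRCm38), per the submitters' processing notes. Reads that fit several genes, and strand overlaps, can lower or blur the counts of overlapping genes. The libraries held 10996 and 12289 barcodes. Barcodes with at least 1000 UMIs, 500 genes and at most 10% mitochondrial UMIs were kept (8705 and 9756). Scrublet's own threshold marked 0 cells, so the 8% with the highest doublet scores were removed instead (696 and 780). Cells were put in classes by marker genes at 2 or more UMIs each, and cells passing several gates were set aside (169 and 172). UMIs were summed by class and stage, with exact Poisson 95% intervals for levels, exact conditional intervals for ratios and exact Clopper-Pearson intervals for shares. A count of 0 was read as at most 3 counts. A level needed 20 cells in a class, apart from that of the 5 germ cell-like cells of E10.5, which is also given, and a stage ratio 50 cells in each library. The ratio intervals were tested on simulated data. Gene positions are from mouse GENCODE release 21 (31011 features matched) and promoters from RefSeq.

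Members reaching 50 CPM in at least 1 class of 20 cells were given by class and the others by their range and highest class. Genes that are no members were named only from the marker and gene lists, and the examples among them were chosen after their values were seen. The members, markers and lists were chosen with earlier results of these data known. No sample was left out. Alternatives were other cell filters, doublets kept, 1 marker more, Leiden clusters, other scalings, thinning and other sets of classes. Software was Python 3.11.15, numpy 2.4.6, scipy 1.17.1, pandas 2.3.3, scanpy 1.11.5, anndata 0.12.19, leidenalg 0.10.2, scikit-learn 1.9.0 and matplotlib 3.10.9.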

Additional observations from a re-analysis of the deposited data

Results flagged for a closer look

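The genes Phlda2, Dlk1 and Ndn moved in opposite directions between the stages in different classes, each past 2-fold, and the difference between the classes was not tested. Phlda2 had a log2 ratio of E11.5 over E10.5 of 2.547 in hepatoblast-like cells, -1.776 in mural or smooth muscle-like cells and -1.450 in stellate-like cells. These rest on few UMIs: 24 and 429 in hepatoblast-like cells (interval 1.95 to 3.20) and 14 and 8 in mural or smooth muscle-like cells (-3.24 to -0.42). Stellate-like cells had 38 and 20 (-2.31 to -0.63). As a mean over cells the hepatoblast-like ratio of Phlda2 was 1.75. Dlk1 had a log2 ratio of 1.259 in primitive erythroid-like cells and -1.148 in endothelial-like cells, where it was -0.51 with doublets kept and -0.54 as a mean over cells. Ndn had a log2 ratio of 1.585 in primitive erythroid-like cells and -1.350 in hepatoblast-like cells. In primitive erythroid-like cells both genes were below the level they would have at the class's share of 5 mesenchymal genes, which was 0.0604 of the library at E10.5 and 0.220 at E11.5. Ndn was 9.36 and 28.1 CPM there, 0.939 and 0.888 times that level, and Dlk1 was 39.5 and 94.6 CPM, 0.869 and 0.553 times it. In endothelial-like cells the share of the 5 mesenchymal genes was 0.0718 and 0.0631. Dlk1 was 47.1 and 21.3 CPM in that class, and 754 and 779 CPM in the whole libraries. The part of carried-over RNA in these ratios was not tested.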

How the results depend on the processing

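Over 46 named levels and ratios and their alternatives, 233 of 343 values lay inside the counting interval of the reported value and 110 lay outside it. A change of sign was looked for only in ratios whose interval left out 0, and 0 of these values changed sign. Levels have no sign, so that check could not apply to them. With doublets kept, the count of members at least 4-fold low in primitive erythroid-like cells was 14 at E10.5 and 11 at E11.5, from 23 and 22; the cause was not tested. The E11.5 count of members 4-fold above the median class was 8 over classes measured at both stages and 6 without blood and germ classes, from 16, both chosen after seeing the data. The shares of all genes were 30.9% and 23.3%, from 36.5%. With ratios centred so that the median gene has 0, the members' median in body-wall mesenchyme-like cells was 0.11, from 0.33. Thinning to 5000 UMIs lowers shares by construction. The H19 shares became 76.4% and 56.4% in primitive erythroid-like, 30.8% in definitive erythroid-like, 17.9% in low-globin erythroid-like (from 62.2%) and 16% in germ cell-like cells (from 59.3%). Those of Phlda2 became 60.0% in germ cell-like and 1.10% in body-wall mesenchyme-like cells, and those of Zdbf2 48.5% and 84.2% in neuron-like and 0% in definitive erythroid-like cells. No paired analysis was possible because each stage had 1 library. Class names rest on marker gates, and few cells (5 and 27 germ cell-like) limit the precision.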
